A study of Homo sapiens with 24 samples.

Results

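The lysosome is the acidic compartment in which cells break down proteins, sugars, sulphated glycans and lipids. Its hydrolases are made in the endoplasmic reticulum, tagged with mannose 6-phosphate and delivered to an organelle whose membrane is coated by LAMP proteins and acidified by a vacuolar proton pump. TFEB and its relatives TFE3 and MITF are transcription factors that bind a short palindromic element upstream of many of these genes, and mTORC1 at the lysosomal surface holds TFEB in the cytoplasm while nutrients are plentiful.

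Transcripts of 51 lysosome genes, taken from a fixed list of names among the 59609 genes of the count table, were followed in all groups. They comprised 7 membrane proteins, 12 peptidases, 11 glycosidases, 5 sulphatases, 6 lipid enzymes and lipid-binding proteins, 8 proton pump subunits, the granulin precursor GRN and the regulator TFEB. The names were taken by function, with no threshold on a measured value, but with earlier results of these data known. Gene expression was profiled by 3′ RNA-seq, in which 1 read is taken near the polyadenylated end of a transcript, in MDA-MB-231 cells and MDA-MB-453 cells, which come from ER-negative breast cancers. Both lines are labelled wild type, and each is a single established line. Cells received DMSO, the CDK4/6 inhibitor abemaciclib at 500 nM, the ER degrader fulvestrant at 5 nM or both drugs for 5 days, with 3 libraries in each of the 8 groups. MDA-MB-231 was grown in RPMI-1640 and MDA-MB-453 in DMEM, so line and medium cannot be told apart. The labels only number the replicates, and the study's methods describe them as separate biological cultures of an experiment run once, so p-values here measure the spread between cultures of a single run.

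Library totals lay between 2873558 and 4158762 counts, and 3 counts in a library, the limit that a count of 0 allows, corresponded to 0.721 to 1.04 CPM, counts scaled to a library total of 1000000. Identity markers followed the labels: VIM, CD44 and AXL were at 0 counts throughout MDA-MB-453, and FOXA1 under DMSO averaged 3.44 ± 1.99 CPM for MDA-MB-231 and 196 ± 22.1 CPM for the other line (SD, n = 3 here and throughout). The leukocyte markers PTPRC, CD14, CSF1R and CD3E reached at most 2 counts in any group. With abemaciclib, 1 of the 3 listed markers of MDA-MB-231 was called higher in that line (VIM, by 0.29 on the log2 scale, with CD44 at 0.07 and AXL at -0.04). Of the 3 listed for MDA-MB-453, 2 were called higher there (ERBB2 by 0.91, with FOXA1 at 0.07 not called), and their part in the results was not tested. Mitochondrially encoded genes of MDA-MB-231 held 8.83% ± 0.213 of counts under DMSO and 12.2% ± 1.05 under abemaciclib, and 15.2% ± 0.653 and 23.8% ± 1.91 in MDA-MB-453, so each summed level below is also given without them. Levels are CPM after TMM scaling, which aligns libraries on the bulk of their genes. Each gene that passed a low-count filter entered edgeR's quasi-likelihood test, and a gene was called where its adjusted p (Benjamini-Hochberg, over every gene tested) was below 0.05. Differences are log2 fold changes ± SE.

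With abemaciclib, most testable lysosome genes rose in each line. In MDA-MB-231, 42 of the 51 genes passed the filter and 28 were called higher and 0 lower, whereas 33.7% of all 11314 genes tested were called, 16.9% higher and 16.9% lower. For MDA-MB-453, 46 passed, 25 were called higher with 3 lower, beside 36% of 11080 genes called, 16.6% higher and 19.4% lower. Their median log2 fold change was 0.67 for MDA-MB-231 and 0.63 for MDA-MB-453, while the median over all genes tested was 0.00 in both. Of the 42 genes tested in both lines, 20 were called higher in both and 0 lower in both, whereas of all 9691 genes tested in both, 473 were higher in both, 823 lower in both and 332 opposite. CTSC and LIPA were the 2 genes called in opposite directions.

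The summed level rose with them. The 51 genes together held 0.312% ± 0.00809 of non-mitochondrial counts in MDA-MB-231 under DMSO and 0.616% ± 0.0187 under abemaciclib. The corresponding shares in MDA-MB-453 were 0.854% ± 0.0213 and 1.518% ± 0.0384. Fulvestrant gave 0.326% ± 0.0147 and 0.802% ± 0.0455, and the combination gave 0.604% ± 0.0316 and 1.507% ± 0.0231. No library with abemaciclib overlapped a library of its line without it, and the fulvestrant and DMSO libraries overlapped in each line. In MDA-MB-453 the shares were 0.758%, 0.799% and 0.849% under fulvestrant and 0.835%, 0.849% and 0.877% under DMSO. Of all counts, mitochondrial ones included, the shares under DMSO and abemaciclib were 0.285% ± 0.00719 and 0.541% ± 0.0225 in MDA-MB-231 and 0.724% ± 0.0128 and 1.157% ± 0.0587 in MDA-MB-453. In bulk libraries, a larger share of cells with high expression and more RNA per cell cannot be told apart.

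**Figure D1:**
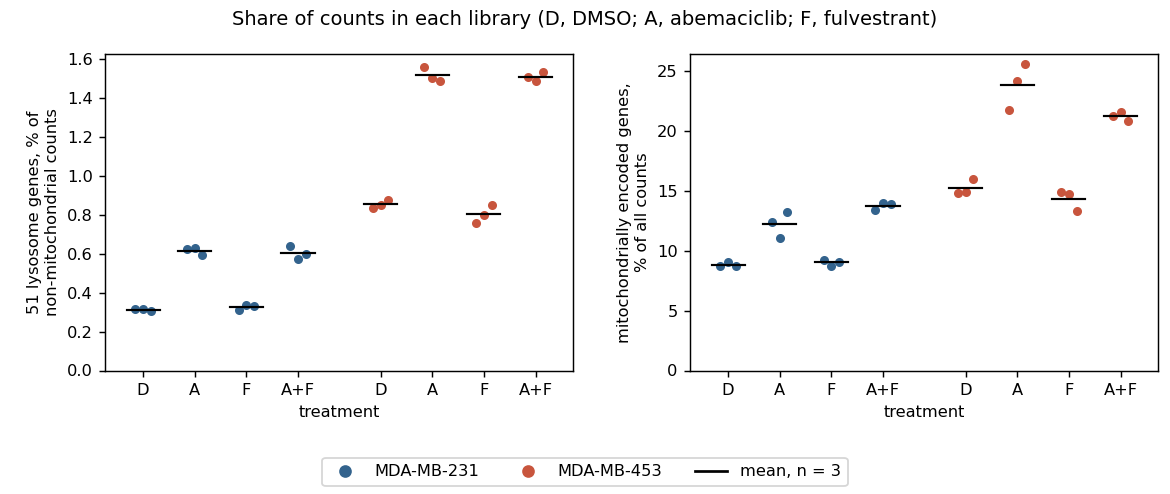
Share of counts in each of the 24 libraries, as points with the mean of 3 as a line. The left panel gives the 51 lysosome genes as a percentage of non-mitochondrial counts and the right panel the mitochondrially encoded genes as a percentage of all counts; both were higher in the libraries with abemaciclib (A and A+F) than in those without (D and F) in each line.

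Promoter sequence was examined next, since many lysosome genes carry the palindrome CACGTG that TFEB and other E-box proteins can bind. RefSeq windows of 300 bases (GRCh38.p14, 250 before to 50 after the start) were given for 35 of the 51 genes. CACGTG, which reads the same on both strands, was present in 13 of the 35 (37.1%) and in 2396 of 27305 genes with a window (8.77%). The longer form TCACGTG, searched on both strands and contained in the former, was present in 12 (34.3%) against 4.49% of all genes, and the full palindrome TCACGTGA in 7 (20%) against 1.18%. Called and uncalled genes both carried it: in MDA-MB-231, CACGTG was found in 8 of the 20 matched genes called higher and in 3 of the 9 not called, and in MDA-MB-453 in 8 of 16 and in 4 of the other 16. Shown here are 3 promoters of genes called higher in both lines and that of MCOLN1, which carries the motif and was called in neither line, 5′ to 3′ with each CACGTG in capitals. The LAMP1 window holds 6 matches, GAA and MCOLN1 hold 2 each and CTSD holds 1.
LAMP1, chr13:113296989-113297288, plus strand: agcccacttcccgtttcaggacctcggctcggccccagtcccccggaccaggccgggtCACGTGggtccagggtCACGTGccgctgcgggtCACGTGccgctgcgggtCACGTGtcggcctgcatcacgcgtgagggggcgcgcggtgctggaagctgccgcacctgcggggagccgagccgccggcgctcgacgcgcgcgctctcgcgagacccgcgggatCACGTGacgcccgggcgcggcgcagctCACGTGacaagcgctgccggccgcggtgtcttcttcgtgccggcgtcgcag
CTSD, chr11:1763878-1764177, minus strand: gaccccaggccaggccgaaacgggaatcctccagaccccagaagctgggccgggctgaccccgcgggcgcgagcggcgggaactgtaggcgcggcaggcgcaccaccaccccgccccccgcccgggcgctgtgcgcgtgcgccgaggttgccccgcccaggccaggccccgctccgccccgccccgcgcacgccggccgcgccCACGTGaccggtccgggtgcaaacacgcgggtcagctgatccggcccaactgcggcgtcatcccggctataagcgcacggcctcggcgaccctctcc
GAA, chr17:80101331-80101630, plus strand: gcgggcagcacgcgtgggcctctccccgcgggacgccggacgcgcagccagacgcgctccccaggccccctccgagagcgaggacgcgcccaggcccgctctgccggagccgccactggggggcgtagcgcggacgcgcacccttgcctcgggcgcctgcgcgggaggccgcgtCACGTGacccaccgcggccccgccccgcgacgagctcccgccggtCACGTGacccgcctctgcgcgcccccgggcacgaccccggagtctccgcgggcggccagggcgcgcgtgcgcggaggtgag
MCOLN1, chr19:7522374-7522673, plus strand: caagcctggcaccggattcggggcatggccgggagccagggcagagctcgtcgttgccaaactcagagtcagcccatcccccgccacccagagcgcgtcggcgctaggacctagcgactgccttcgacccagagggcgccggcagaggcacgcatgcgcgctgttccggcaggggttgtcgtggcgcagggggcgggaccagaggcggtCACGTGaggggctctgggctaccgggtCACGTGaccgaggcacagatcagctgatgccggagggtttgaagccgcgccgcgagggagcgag
A match describes these letters only and does not show that a factor binds there.

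Among membrane proteins, 4 of 6 tested were called higher in MDA-MB-231 and 5 of 6 in MDA-MB-453, and none was lower. LAMP1, a heavily glycosylated protein that lines the inner face of the lysosomal membrane (GRCh38 chromosome 13, 113297239 to 113323672), measured 171, 164 and 162 CPM in the DMSO libraries of MDA-MB-231 and 257, 281 and 222 CPM under abemaciclib. MDA-MB-453 gave 368, 369.7 and 402 CPM and 599, 607 and 586 CPM. All abemaciclib libraries lay above all DMSO libraries of their line, by 0.62 ± 0.11 (adjusted p = 1.3e-05) and 0.65 ± 0.09 (adjusted p = 3e-08). LAMP2, its relative that also serves chaperone-mediated autophagy, was higher by 0.59 ± 0.15 and 0.83 ± 0.10. The tetraspanin CD63 rose from 634 ± 44.1 to 1406 ± 71.8 CPM in the first line and from 1495 ± 90.7 to 2885 ± 81.98 CPM. SCARB2, the receptor that carries glucocerebrosidase to the lysosome, rose by 0.97 ± 0.20 and 0.82 ± 0.10.

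The cholesterol exporter NPC1 (GRCh38 chromosome 18, 23506184 to 23586506) was the membrane protein whose response differed between the lines. It measured 16.4, 17.3 and 14.1 CPM under DMSO and 13.7, 13.1 and 8.25 CPM with abemaciclib in MDA-MB-231, and 14.8, 15.5 and 15.03 and 22.7, 25.9 and 25.7 CPM in MDA-MB-453. Its abemaciclib libraries were the lower ones in MDA-MB-231, with a difference of -0.45 ± 0.27 (adjusted p = 0.21) that was not called, and the higher ones in MDA-MB-453, by 0.70 ± 0.22 (adjusted p = 0.01). MCOLN1, the lysosomal calcium channel TRPML1, measured 3.87, 6.33 and 3.53 CPM and 3.06, 3.26 and 5.32 CPM in MDA-MB-231. In MDA-MB-453 it measured 7.69, 10.3 and 13 CPM and 13.6, 9.92 and 4.68 CPM. Its groups overlapped in both lines, with differences of -0.23 ± 0.51 (adjusted p = 0.77) and -0.12 ± 0.35 (adjusted p = 0.83). Of the last 500 exonic bases of MCOLN1, 175 are shared with another gene on the same strand, and NPC1 shares 198 of its own with a gene on the opposite strand. Whether counting used strand is not given in the sources used here.

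Peptidases moved upwards in MDA-MB-231, where 6 of 9 were called higher and 0 lower, and in both directions in MDA-MB-453, where 4 of 10 were higher and 2 lower. CTSD, the aspartic protease cathepsin D (GRCh38 chromosome 11, 1752752 to 1764573), measured 85.7, 88.7 and 91.6 CPM under DMSO and 232, 213 and 208 CPM with abemaciclib in MDA-MB-231. The values in MDA-MB-453 were 454, 457 and 518 CPM and 702, 754 and 775 CPM. Both sets of libraries separated, by 1.30 ± 0.11 (adjusted p = 3.1e-12) and 0.64 ± 0.08 (adjusted p = 1.8e-08). TPP1, the tripeptidyl peptidase lost in a childhood ceroid lipofuscinosis (GRCh38 chromosome 11, 6612768 to 6619448), had the largest increase among peptidases in MDA-MB-231. It went from 11.3, 7.77 and 9.42 CPM to 39.9, 55.8 and 27.4 CPM there, and from 53.9, 43.02 and 56.4 CPM to 86.8, 79.7 and 81.5 CPM in MDA-MB-453. Neither comparison overlapped, and the differences were 2.11 ± 0.24 (adjusted p = 2.1e-09) and 0.69 ± 0.14 (adjusted p = 9e-05). The protective protein CTSA, which stabilises other hydrolases, rose by 0.93 ± 0.17 and 0.55 ± 0.13, with 200 of its last 500 exonic bases facing a gene on the opposite strand.

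The dipeptidyl peptidase CTSC (GRCh38 chromosome 11, 88265069 to 88359684), which activates granule proteases of immune cells, was 1 of the 2 genes called in opposite directions. It measured 75.3, 67.1 and 76.5 CPM under DMSO and 135, 108 and 117 CPM with abemaciclib in MDA-MB-231. In MDA-MB-453 the values were 24.6, 20.3 and 15.6 CPM and 9.08, 4.21 and 14.03 CPM. The abemaciclib libraries were the high ones in the first line, by 0.72 ± 0.13 (adjusted p = 1.4e-05), and the low ones in the second, at -1.16 ± 0.30 (adjusted p = 0.0016). LGMN, the asparaginyl endopeptidase legumain (GRCh38 chromosome 14, 92703807 to 92748679), measured 45.6, 29.7 and 35.8 CPM and 29.1, 11.7 and 24.1 CPM in MDA-MB-453 and 24.1, 21.6 and 31.8 and 32.3, 23.4 and 18.4 CPM in MDA-MB-231. It was lower in MDA-MB-453 without overlap, at -0.77 ± 0.23 (adjusted p = 0.0054), and overlapped in MDA-MB-231, with -0.06 ± 0.23 (adjusted p = 0.87). The LGMN call was lost without MDA-MB-453 abemaciclib replicate 2 or DMSO replicate 1, with adjusted p up to 0.092.

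The cysteine protease CTSB rose in MDA-MB-231, from 69.4 ± 6.85 to 142 ± 8.05 CPM, while MDA-MB-453 gave no call, at 40.95 ± 6.16 and 49.7 ± 4.50 CPM. CTSZ, a carboxypeptidase, measured 56.2, 50.4 and 50.4 CPM and 65.2, 99.4 and 56.7 CPM in MDA-MB-231. Its call there, 0.50 ± 0.16 (adjusted p = 0.014), was lost without abemaciclib replicate 2, the highest library, or without DMSO replicate 2 (adjusted p up to 0.33). In MDA-MB-453 CTSZ measured 9.17, 13.3 and 18.8 CPM and 18.7, 29.2 and 16.4 CPM, which overlapped, and it was called without abemaciclib replicate 1 or 3 or DMSO replicate 3 (adjusted p 0.049, 0.033 and 0.018). CTSF, whose product is a cysteine protease, had 0 counts in all 12 MDA-MB-231 libraries. In MDA-MB-453 it measured 18.4, 21.6 and 18.5 CPM under DMSO and 40.9, 41.8 and 33.8 CPM under abemaciclib, a separation of 0.99 ± 0.20 (adjusted p = 7e-05). CTSL measured 39.3, 38 and 38.3 CPM and 38.5, 44.5 and 30.9 CPM in MDA-MB-231 and 4.44, 3.89 and 6.36 and 2.14, 3.31 and 7.35 CPM in MDA-MB-453, with overlap in both. CTSH, an aminopeptidase, was called in neither line, at 0.59 ± 0.28 and -0.81 ± 0.57, though without MDA-MB-231 abemaciclib replicate 1 it was called higher (adjusted p = 0.0054). CTSK and CTSS, cysteine proteases best known from osteoclasts and antigen-presenting cells, held at most 3 and 8 counts in any library and were not tested.

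**Figure D2:**
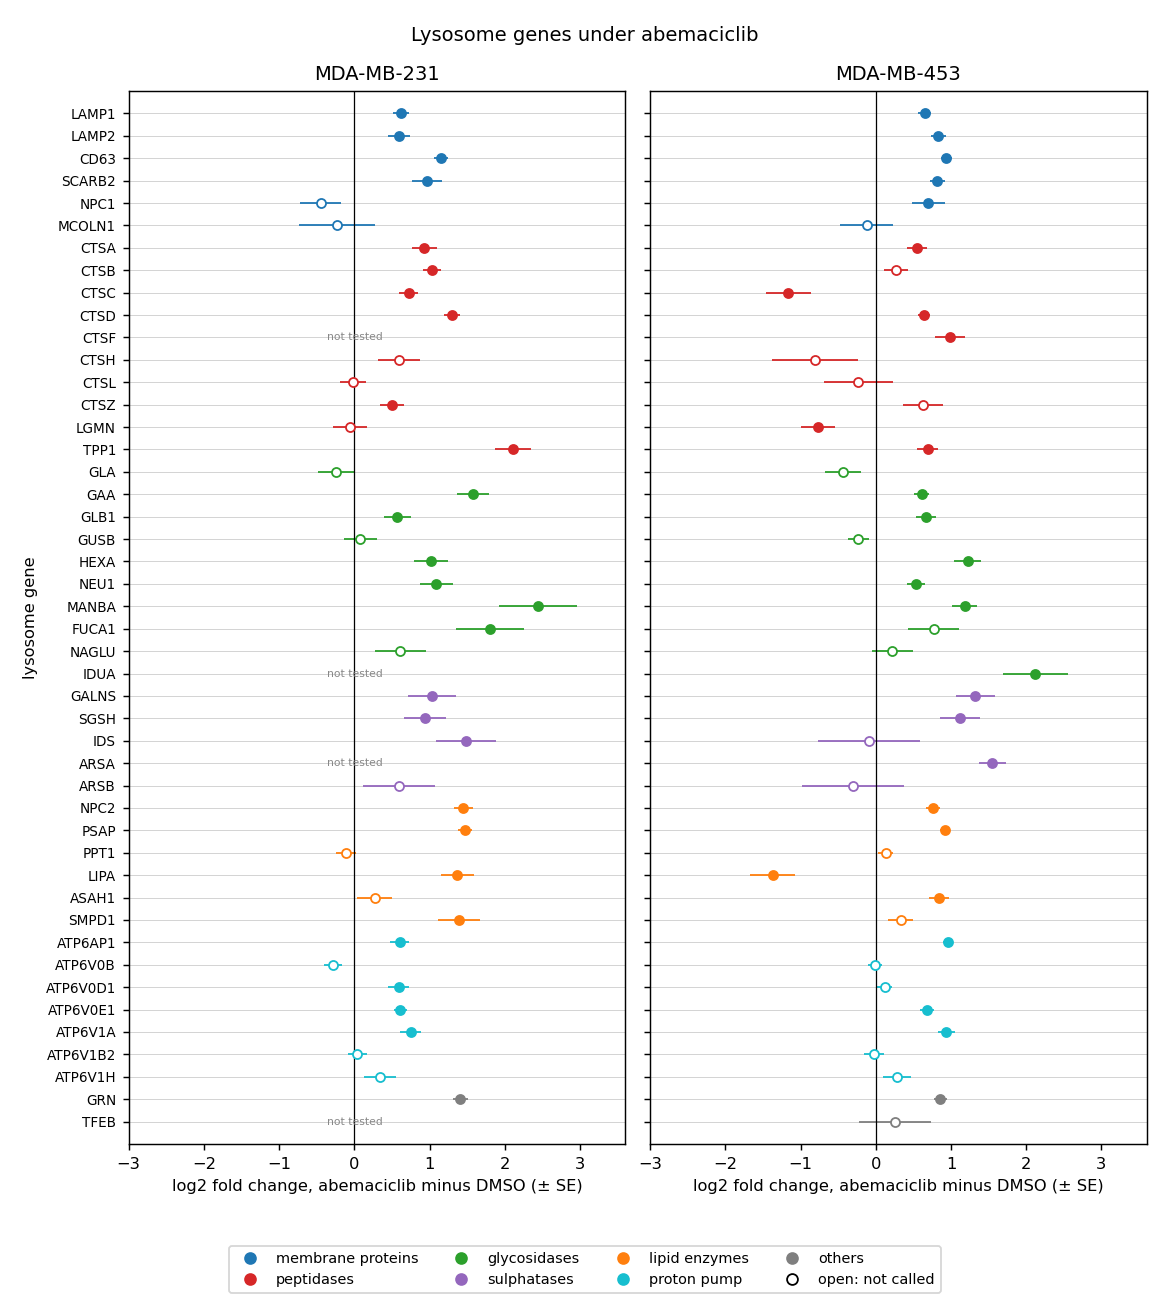
Log2 fold change between abemaciclib and DMSO for the 46 lysosome genes tested in at least 1 line, with bars of 1 SE, coloured by class; filled points passed an adjusted p of 0.05 and open points did not. In MDA-MB-231 all 28 filled points lie to the right of 0, and in MDA-MB-453 25 do and CTSC, LGMN and LIPA lie to the left.

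Glycosidases, which trim sugars from glycoproteins, glycolipids and glycogen, were called higher for 6 of 9 in MDA-MB-231 and 6 of 10 in MDA-MB-453, with 0 lower in either. GAA, the acid alpha-glucosidase that degrades glycogen (GRCh38 chromosome 17, 80101533 to 80119881), measured 16.7, 12.9 and 13.8 CPM under DMSO and 43.8, 38.9 and 47.4 CPM with abemaciclib in MDA-MB-231. In MDA-MB-453 it went from 145, 162 and 161 CPM to 253, 241 and 225 CPM. Groups did not overlap in either line, and the differences were 1.58 ± 0.21 (adjusted p = 1.1e-07) and 0.61 ± 0.10 (adjusted p = 2.8e-06). GLB1, the beta-galactosidase whose activity is read as a stain for senescent cells (GRCh38 chromosome 3, 32996609 to 33097202), measured 34.5, 26.2 and 26.2 and 39.01, 48.96 and 40.5 CPM in MDA-MB-231 and 73.98, 70.5 and 77.7 and 142, 101 and 111 CPM in MDA-MB-453. It was higher without overlap in both, by 0.57 ± 0.18 (adjusted p = 0.014) and 0.67 ± 0.13 (adjusted p = 3.3e-05). The MDA-MB-231 call was lost without abemaciclib replicate 2, DMSO replicate 2 or DMSO replicate 3, with adjusted p up to 0.088. HEXA, the hexosaminidase alpha subunit, rose by 1.02 ± 0.23 and 1.22 ± 0.18, and the sialidase NEU1 by 1.09 ± 0.22 and 0.53 ± 0.12.

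MANBA had the largest fold change of the lysosome genes called in MDA-MB-231, at a low level. It held 5, 6 and 5 counts there under DMSO and 1, 5 and 5 under fulvestrant. It therefore passed the low-count filter only through the libraries with abemaciclib, and its call and rank in MDA-MB-231 rest on that. The counts of lysosome genes and of glycosidases called higher in MDA-MB-231 include MANBA. This beta-mannosidase (GRCh38 chromosome 4, 102630770 to 102760994), measured 1.49, 1.73 and 1.47 CPM under DMSO and 6.97, 10.98 and 7.99 CPM under abemaciclib. In MDA-MB-453 it measured 27.8, 35.8 and 23.98 CPM and 69.2, 68.2 and 62.1 CPM. All abemaciclib libraries were the higher ones, by 2.44 ± 0.52 (adjusted p = 0.00026) and 1.18 ± 0.17 (adjusted p = 1.1e-07). FUCA1, the alpha-fucosidase, went from 1.49, 4.61 and 2.65 CPM to 9.20, 10.4 and 11.2 CPM in MDA-MB-231 and from 4.44, 9.16 and 8.67 CPM to 16.8, 8.72 and 12.7 CPM in MDA-MB-453. It was called in the first line, 1.80 ± 0.45 (adjusted p = 0.0016), and overlapped in the second, 0.77 ± 0.34 (adjusted p = 0.075), where it was called without abemaciclib replicate 2 (adjusted p = 0.034). IDUA, the iduronidase of glycosaminoglycan breakdown (GRCh38 chromosome 4, 986997 to 1004564), had 0 counts in every DMSO and fulvestrant library of MDA-MB-231 and 11, 2 and 3 counts in the abemaciclib libraries, most of them in replicate 1, and was not tested there. It measured 3.25, 1.11 and 4.33 CPM and 12.6, 9.92 and 15.7 CPM in MDA-MB-453, where the abemaciclib libraries were all higher, by 2.12 ± 0.43 (adjusted p = 9.7e-05). GLA, GUSB and NAGLU, which act on alpha-galactosides, glucuronides and heparan sulphate, were called in neither line, with differences between -0.43 and 0.61, except that GLA was called lower in MDA-MB-453 without abemaciclib replicate 1 (adjusted p = 0.012).

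Of the sulphatases, which remove sulphate groups from glycans and sulphatides, 3 of 4 were called higher in MDA-MB-231 and 3 of 5 in MDA-MB-453. GALNS (GRCh38 chromosome 16, 88813734 to 88856970), which acts on keratan sulphate, measured 4.17, 10.4 and 10.3 and 19.2, 14.8 and 16.8 CPM in MDA-MB-231 and 12.4, 6.94 and 11.3 and 24.3, 30.4 and 22.1 CPM in MDA-MB-453. It was higher without overlap in both, by 1.03 ± 0.32 (adjusted p = 0.0095) and 1.32 ± 0.26 (adjusted p = 4.9e-05). Without DMSO replicate 1, its lowest library, the MDA-MB-231 call was lost (adjusted p = 0.094). ARSA, the arylsulphatase A lost in metachromatic leukodystrophy (GRCh38 chromosome 22, 50622754 to 50628173), went from 16.3, 23.6 and 17.6 CPM to 57.7, 58.6 and 53.5 CPM in MDA-MB-453. That difference, 1.55 ± 0.18 (adjusted p = 1.3e-09), left a wide gap between the groups. In MDA-MB-231 ARSA lay near the floor, at 1.19, 1.73 and 0 and 0.836, 0.890 and 0.798 CPM, and was not tested. SGSH, a heparan sulphatase, rose by 0.94 ± 0.28 and 1.12 ± 0.27, with 56 of its last 500 exonic bases facing an opposite-strand gene, and its MDA-MB-231 call was lost without abemaciclib replicate 2 (adjusted p = 0.064). IDS, the iduronate sulphatase, rose in MDA-MB-231 by 1.48 ± 0.40 (adjusted p = 0.0032), and was at -0.09 ± 0.68 (adjusted p = 0.93) in MDA-MB-453, where its mean was 2.02 CPM. The difference in IDS between the lines was -1.56 ± 0.72 (adjusted p = 0.13) and not called. ARSB, a dermatan sulphatase, was called in neither line.

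Lipid enzymes and lipid-binding proteins were called higher for 4 of 6 with MDA-MB-231, and for 3 of 6, with 1 lower, with MDA-MB-453. PSAP, the precursor of the saposins that help degrade sphingolipids (GRCh38 chromosome 10, 71816298 to 71851251), measured 311, 312 and 275 CPM under DMSO and 834, 801 and 841 CPM with abemaciclib in MDA-MB-231. In MDA-MB-453 it measured 759.6, 766 and 764 CPM and 1528, 1364 and 1457 CPM. These libraries were far apart, with differences of 1.47 ± 0.09 (adjusted p = 8.2e-17) and 0.92 ± 0.07 (adjusted p = 2.1e-14). NPC2, which hands cholesterol to NPC1, rose from 57.5 ± 4.91 to 157 ± 7.90 CPM in the first line and from 381 ± 10.4 to 646 ± 88.3 CPM. LIPA, the acid lipase of cholesteryl ester breakdown (GRCh38 chromosome 10, 89213569 to 89414557), measured 11.6, 12.4 and 11.8 and 35.7, 32.05 and 25.02 CPM in MDA-MB-231 and 24.3, 21.9 and 19.9 and 8.01, 9.02 and 8.69 CPM in MDA-MB-453. Its abemaciclib libraries were the high ones in MDA-MB-231, by 1.37 ± 0.22 (adjusted p = 3.8e-06), and the low ones in MDA-MB-453, at -1.37 ± 0.30 (adjusted p = 0.00022). The acid sphingomyelinase SMPD1 was called in MDA-MB-231 alone (1.39 ± 0.28, against 0.33 ± 0.17 in MDA-MB-453), and the acid ceramidase ASAH1 in MDA-MB-453 alone (0.84 ± 0.13, against 0.27 ± 0.23). The difference between lines was called for SMPD1 and not for ASAH1 (adjusted p = 0.084). Without MDA-MB-453 abemaciclib replicate 3, SMPD1 was called there too (adjusted p = 0.037), and without MDA-MB-231 DMSO replicate 2 its difference between lines was not (adjusted p = 0.065). The thioesterase PPT1 was called in neither.

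The proton pump consists of a membrane sector that carries protons and a cytosolic sector that hydrolyses ATP. Of its genes, 4 of 7 tested were called higher in MDA-MB-231, 3 of 7 in MDA-MB-453 and 0 lower. ATP6V1A, the catalytic subunit (GRCh38 chromosome 3, 113746770 to 113812056), measured 50.9, 46.4 and 52.7 CPM under DMSO and 74.4, 87.2 and 90.8 CPM with abemaciclib in MDA-MB-231. In MDA-MB-453 it measured 140.3, 139 and 136 CPM and 214, 288 and 298 CPM. The groups separated by 0.75 ± 0.14 (adjusted p = 2.2e-05) and 0.94 ± 0.11 (adjusted p = 4.3e-09). ATP6AP1, an accessory subunit needed for assembly (GRCh38 chromosome X, 154428633 to 154436516), went from 64.3, 66.8 and 54.5 CPM to 102, 92.3 and 86.5 CPM and from 1221, 1290 and 1346 CPM to 2539, 2554 and 2452 CPM. It rose without overlap by 0.60 ± 0.13 (adjusted p = 4e-04) and 0.96 ± 0.07 (adjusted p = 7.1e-15). ATP6V0E1, of the membrane sector, rose in both lines (0.61 ± 0.09 and 0.68 ± 0.09), and ATP6V0D1, which joins the sectors, was called in MDA-MB-231 alone (0.59 ± 0.14, against 0.12 ± 0.10). ATP6V0B, of the proton-carrying ring, and ATP6V1B2 and ATP6V1H, of the cytosolic sector, were called in neither line, with differences between -0.28 and 0.34, except that ATP6V1H was called in MDA-MB-453 without abemaciclib replicate 3 (adjusted p = 0.037).

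GRN, whose product is cut into granulins within lysosomes, went from 148 ± 4.29 to 392 ± 62.3 CPM in MDA-MB-231 and from 221 ± 16.5 to 401 ± 29.4 CPM in MDA-MB-453, with differences of 1.41 ± 0.10 (adjusted p = 2.4e-14) and 0.86 ± 0.09 (adjusted p = 3e-10). TFEB (GRCh38 chromosome 6, 41683978 to 41736259) measured 5.62, 4.16 and 3.76 CPM under DMSO and 2.67, 9.62 and 4.01 CPM under abemaciclib in MDA-MB-453. Its groups overlapped, at 0.26 ± 0.48 (adjusted p = 0.72). In MDA-MB-231 it held 0.893, 0 and 1.77 and 1.67, 0.297 and 0.266 CPM and was not tested. RNA levels do not report where the TFEB protein is.

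A further 3 genes could not be followed. ATP6V0C, the main subunit of the proton-carrying ring, had 0 counts in all 24 libraries, and the membrane protein CLN3 and the alpha-mannosidase MAN2B1 held at most 9 and 7 counts in any library. For all 3, the last 500 exonic bases lie entirely within another gene annotated on the same strand in GENCODE v44. The authors counted with an earlier release, and the part of this overlap in the low counts was not tested. CTSL, LGMN, GUSB, FUCA1, IDS, ATP6V0C and ATP6V0E1 have named pseudogenes, with which reads could be shared, and their levels are uncertain to that extent. On the same strand, IDS shares 384 and NPC2 72 of these bases with other genes.

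**Figure D3:**
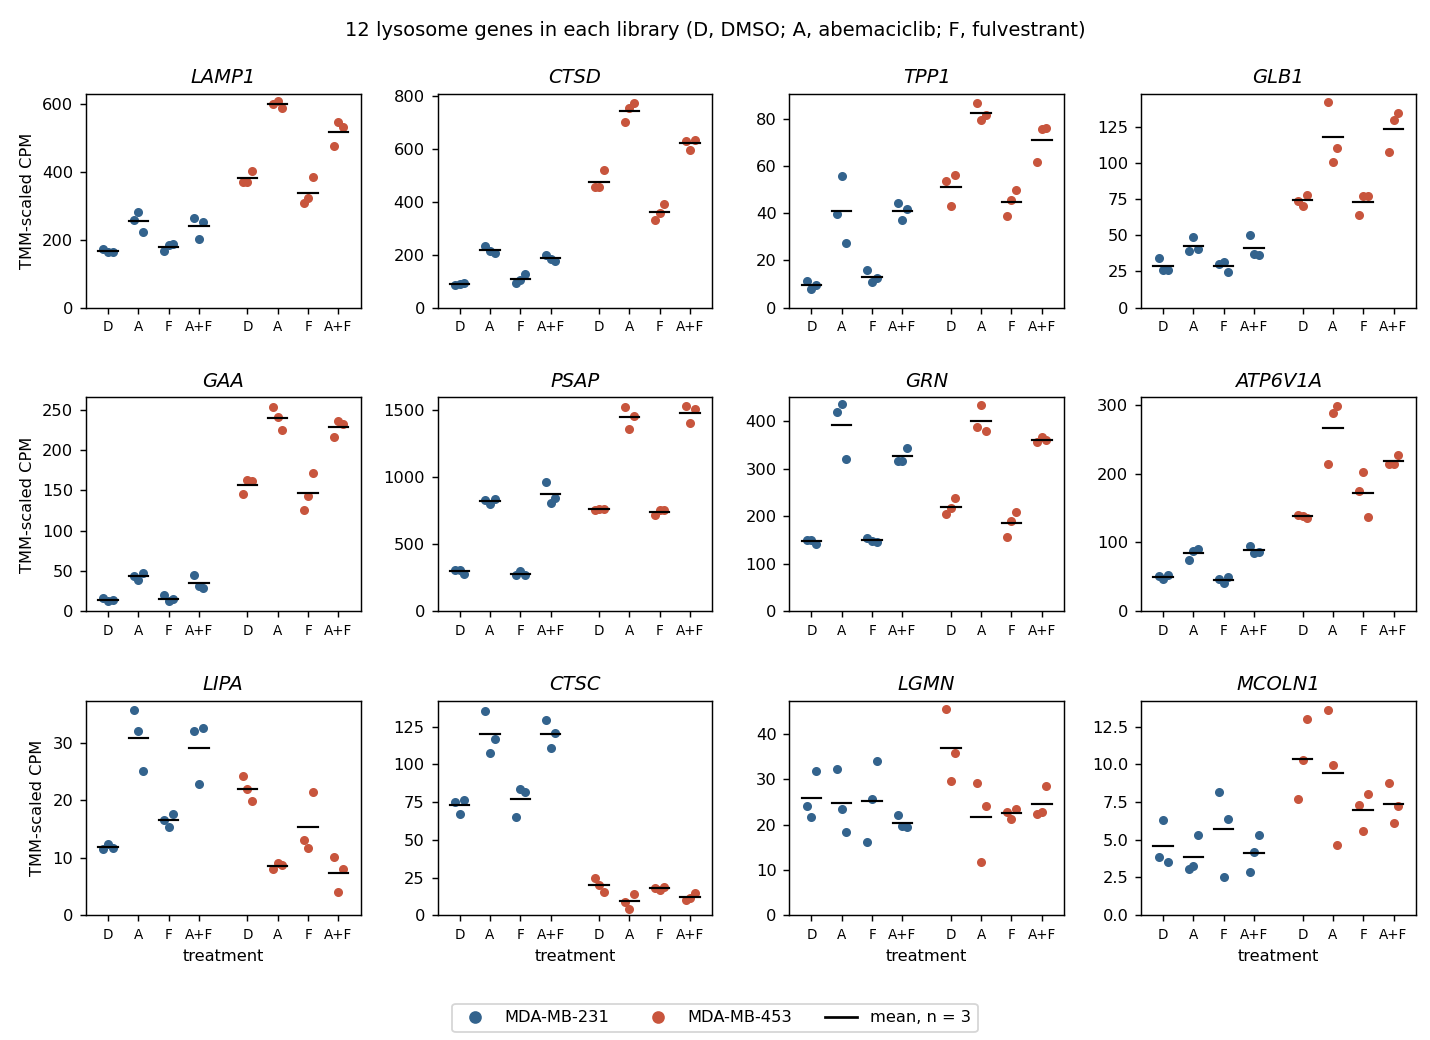
TMM-scaled CPM of 12 lysosome genes in each of the 24 libraries (D, DMSO; A, abemaciclib; F, fulvestrant; A+F, both), with the mean of 3 as a line; each vertical axis starts at 0. LIPA and CTSC were higher with abemaciclib in MDA-MB-231 and lower in MDA-MB-453, and MCOLN1 overlapped in both lines.

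Fulvestrant on its own changed few of these genes past the threshold. In MDA-MB-231, 0 of 42 were called, beside 0% of all genes, with 3 at an unadjusted p below 0.05 in edgeR and 0 called by DESeq2. Without fulvestrant replicate 1, 1 of them was called, beside 205 over all genes. The median log2 fold change of the 42 was 0.01. In MDA-MB-453, the median was -0.11, against -0.02 over all genes, and 14 of 46 had a positive change. An unadjusted p below 0.05 in edgeR was found for 8 of the 46, beside 1504 of all 11080 genes. After adjustment, 1 of the 46 was called, beside 1.41% of all genes. That gene was CTSD, a known oestrogen-responsive gene in ER-positive cells, which measured 454, 457 and 518 CPM under DMSO and 332, 357 and 390.1 CPM under fulvestrant. All 3 fulvestrant libraries lay below the DMSO libraries, at -0.39 ± 0.08 (adjusted p = 0.0074). The call was lost without DMSO replicate 3, fulvestrant replicate 1 or fulvestrant replicate 2 (adjusted p 0.15, 0.13 and 0.085). Without fulvestrant replicate 3, 7 lysosome genes were called, 6 of them lower. The calls over all genes in that fit are not given here, so the 7 have no share to be set against. MDA-MB-231 had 91.3, 105 and 126 CPM of CTSD under fulvestrant, against 85.7, 88.7 and 91.6 CPM under DMSO, where 1 fulvestrant library lay within the DMSO range, and was not called (0.28 ± 0.12).

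Adding fulvestrant to abemaciclib changed no lysosome gene past the threshold. In MDA-MB-231, 0 of 42 were called between the combination and abemaciclib, beside 0.0265% of all genes, with 3 at an unadjusted p below 0.05 and 0 by DESeq2. Without abemaciclib replicate 3, 1 of them was called, beside 96 over all genes. In MDA-MB-453, 0 of 46 were called, beside 2.46%, with 4 at an unadjusted p below 0.05, 1 by DESeq2 and 2 without abemaciclib replicate 1. The groups of 10 of these 46 genes did not overlap, a share near the 19.8% of all genes without overlap in either direction. All 10 had the combination lower, but the split by direction over all genes was not counted. The median difference over the 46 was -0.05. CTSD under abemaciclib and the combination measured 702, 754 and 775 and 630.3, 598 and 635 CPM, a difference of -0.24 ± 0.08 (adjusted p = 0.11). Against DMSO, the combination gave 28 of 42 called higher and 1 lower for MDA-MB-231 (35.4% of all genes called) and 25 of 46 higher and 3 lower for MDA-MB-453 (37.6%). The gene called lower in MDA-MB-231 was ATP6V0B, at 115 ± 8.62 and 85.1 ± 9.68 CPM (-0.43 ± 0.12).

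The abemaciclib effect was measured a second time as the difference between the combination and fulvestrant, which shares no library with the difference between abemaciclib and DMSO. In MDA-MB-231, 28 of 42 genes were called higher and 1 lower, beside 36.1% of all genes, 17.6% higher and 18.5% lower. Called in both were 27, all higher, which is 96.4% of the first list and 93.1% of the second. In MDA-MB-453, 28 of 46 were higher and 1 lower, beside 36.6%, 17.2% higher and 19.4% lower. There 25 were called in both, 24 higher and 1 lower, or 89.3% and 86.2%. Both effects had the same sign for 40 of 42 and 37 of 46 genes (95.2% and 80.4%), against 77.1% and 74.7% of all genes tested. Across all genes tested, the shares called in both were 68.7% and 64.2% in MDA-MB-231 and 65.7% and 64.6% in MDA-MB-453.

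Single genes had like values in this second measurement. PSAP held 271, 301 and 270.3 CPM under fulvestrant and 966, 807 and 844 CPM under the combination in MDA-MB-231, and 716, 755 and 756 and 1533, 1406 and 1507 CPM in MDA-MB-453. LAMP1 held 168, 183 and 186 and 262, 201 and 252 CPM in MDA-MB-231, and 308, 321 and 383 and 474, 546 and 530.5 CPM in MDA-MB-453. Libraries with both drugs were higher without overlap for both genes in each line, by 1.64 ± 0.09 and 1.00 ± 0.07 for PSAP and by 0.42 ± 0.11 and 0.62 ± 0.09 for LAMP1. MANBA had the largest change among genes called in MDA-MB-231, from 0.282, 1.40 and 1.45 CPM to 8.15, 10.9 and 5.30 CPM (2.93 ± 0.55, adjusted p = 4e-05, and 2.36 ± 0.52 for the combination against DMSO). As above, MANBA passed the filter there only through the libraries with abemaciclib. IDUA had it among those called in MDA-MB-453, from 4.17, 2.80 and 3.57 CPM to 15.7, 10.8 and 6.47 CPM (1.62 ± 0.42, adjusted p = 0.0018, and 1.92 ± 0.44 against DMSO). LIPA was again the low gene in MDA-MB-453, from 13.04, 11.7 and 21.4 CPM to 10.1, 4.09 and 8.02 CPM (-1.05 ± 0.31, adjusted p = 0.0057), a call lost without combination replicate 2 or fulvestrant replicate 3 (adjusted p up to 0.075). CTSC fell short of the threshold there (-0.55 ± 0.29, adjusted p = 0.14). LGMN, called lower with abemaciclib against DMSO in MDA-MB-453, was not called in this second measurement, at 22.7, 21.4 and 23.5 CPM under fulvestrant and 22.4, 22.8 and 28.4 CPM under the combination (0.13 ± 0.23, adjusted p = 0.69). Its fulvestrant libraries lay below the DMSO libraries given above without a call (-0.70 ± 0.22, adjusted p = 0.098).

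**Figure D4:**
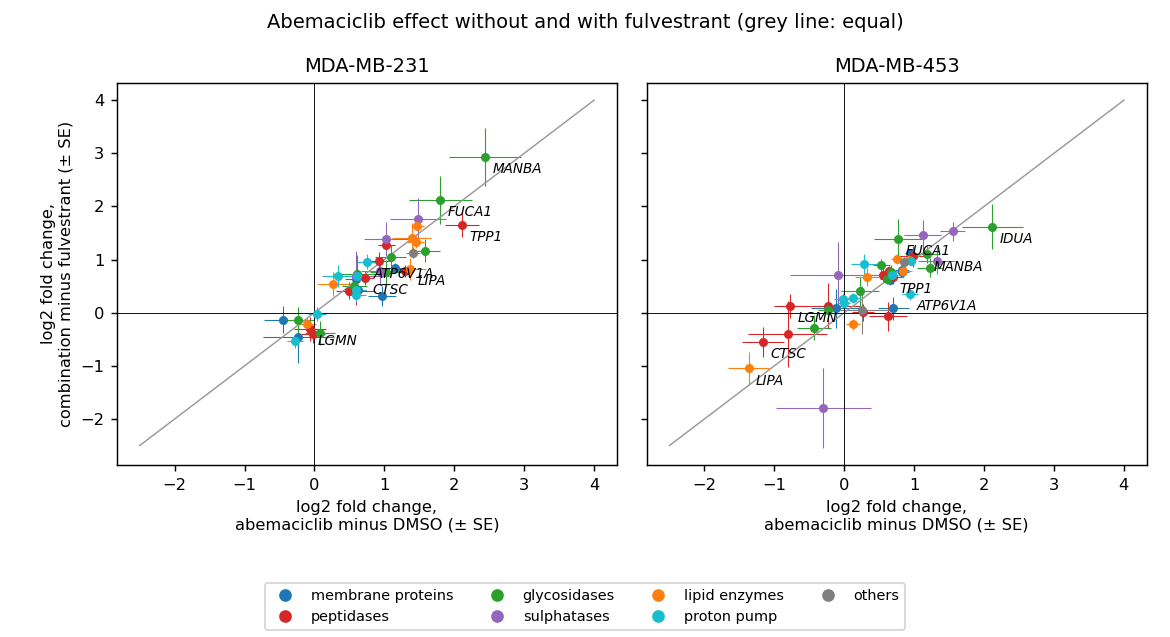
Log2 fold change of each tested lysosome gene for abemaciclib minus DMSO (horizontal) and combination minus fulvestrant (vertical), with bars of 1 SE, coloured by class; the grey line marks equal values. The 2 axes share no library, and 40 of 42 genes in MDA-MB-231 and 37 of 46 in MDA-MB-453 have the same sign on both, against 77.1% and 74.7% of all genes tested.

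Whether the drugs acted on these genes additively was asked with the interaction, defined as what the pair of drugs did beyond the added effects of each. In MDA-MB-231, 0 of 42 genes were called, beside 0.124% of all genes, with 3 at an unadjusted p below 0.05, 0 by DESeq2 and 2 without fulvestrant replicate 1. In MDA-MB-453, 1 of 46 was called, beside 3.8%. That gene was ATP6V1A, which measured 140.3, 139 and 136 CPM under DMSO, 214, 288 and 298 CPM under abemaciclib, 174, 202 and 138 CPM under fulvestrant and 214, 214 and 228 CPM under the combination. The combination libraries lay near the lowest abemaciclib library, and the interaction was -0.59 ± 0.16 (adjusted p = 0.026). This call was lost in 9 of the 12 fits without 1 library, those without abemaciclib replicate 2 or 3, combination replicate 1 or 2, fulvestrant replicate 1 or 2, or any DMSO library, with adjusted p up to 0.16.

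The abemaciclib effect differed between the lines for 14 of 46 genes, beside 20.7% of 12750 genes. It was smaller or of opposite sign in MDA-MB-453 for 12 of the 14. Over all genes tested, 13% were called lower in this difference and 7.72% higher, so most calls leaned that way there too. The median difference, MDA-MB-453 minus MDA-MB-231, was -0.21 over the 46 lysosome genes and -0.07 over all genes tested. Over the 46 it was -0.41 without MDA-MB-453 abemaciclib replicate 1, -0.35 without MDA-MB-231 DMSO replicate 3 and -0.34 without MDA-MB-231 abemaciclib replicate 3. The difference was -2.73 ± 0.37 (adjusted p = 9.6e-08) for LIPA, -1.88 ± 0.29 (adjusted p = 1.5e-06) for CTSC and -1.41 ± 0.28 (adjusted p = 0.00014) for TPP1, whose values per library are given above. LIPA and CTSC changed sign between the lines, and TPP1 rose in both. The effect was larger in MDA-MB-453 for NPC1, by 1.16 ± 0.34 (adjusted p = 0.0099), and for ATP6AP1, by 0.37 ± 0.14 (adjusted p = 0.045). The NPC1 call was lost without MDA-MB-231 abemaciclib replicate 3 (adjusted p = 0.067), and the ATP6AP1 call in 14 of 18 alternatives, 11 of them fits without 1 library, any but MDA-MB-231 DMSO replicate 3 (adjusted p up to 0.28). Peptidases gave 4 of the 12 smaller effects and lipid enzymes 4, and 0 of 5 sulphatases were called. The 46 genes and their median include CTSF, IDUA, ARSA and TFEB, which failed the low-count filter in MDA-MB-231. Their fitted differences are not reliable, and none of them is among the 14. For CTSF, at 0 counts in MDA-MB-231, the fitted difference reflects MDA-MB-453 alone.

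Under DMSO the lines already differed. Of 46 genes, 32 were higher in MDA-MB-453 and 6 lower, beside 69.8% of all genes, and the median log2 difference was 1.30 against -0.03 over all genes tested. CTSF, IDUA, ARSA and TFEB, all among those higher, failed the low-count filter in MDA-MB-231. They were tested here only through their level in MDA-MB-453, so their direction was largely set by the filter. All 6 lipid genes and 9 of 10 glycosidases were higher in MDA-MB-453, and peptidases split, with 4 higher and 5 lower. ATP6AP1 was at 64.3, 66.8 and 54.5 CPM in MDA-MB-231 and 1221, 1290 and 1346 CPM in MDA-MB-453, a difference of 4.38 ± 0.10 (adjusted p = 4.6e-36). CTSF was at least 63.7-fold higher in MDA-MB-453, with 204 counts over its DMSO group against a floor of 3 counts over the other. IDUA, with 30 counts against 0, was at least 9.36-fold higher. CTSL, a cysteine protease, was at 39.3, 38 and 38.3 CPM in MDA-MB-231 and 4.44, 3.89 and 6.36 CPM in MDA-MB-453, a difference of -2.97 ± 0.27 (adjusted p = 1.1e-13). CTSZ and CTSC, with the values given above, differed by -1.92 ± 0.22 (adjusted p = 1.3e-10) and -1.86 ± 0.19 (adjusted p = 2e-12), lower in MDA-MB-453. CTSB, CTSH and ATP6V0E1 were the other 3 genes lower in MDA-MB-453. TFEB was higher there, by 2.31 ± 0.77 (adjusted p = 0.0074), a call lost without MDA-MB-231 DMSO replicate 2 (adjusted p = 0.057).

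**Figure D5:**
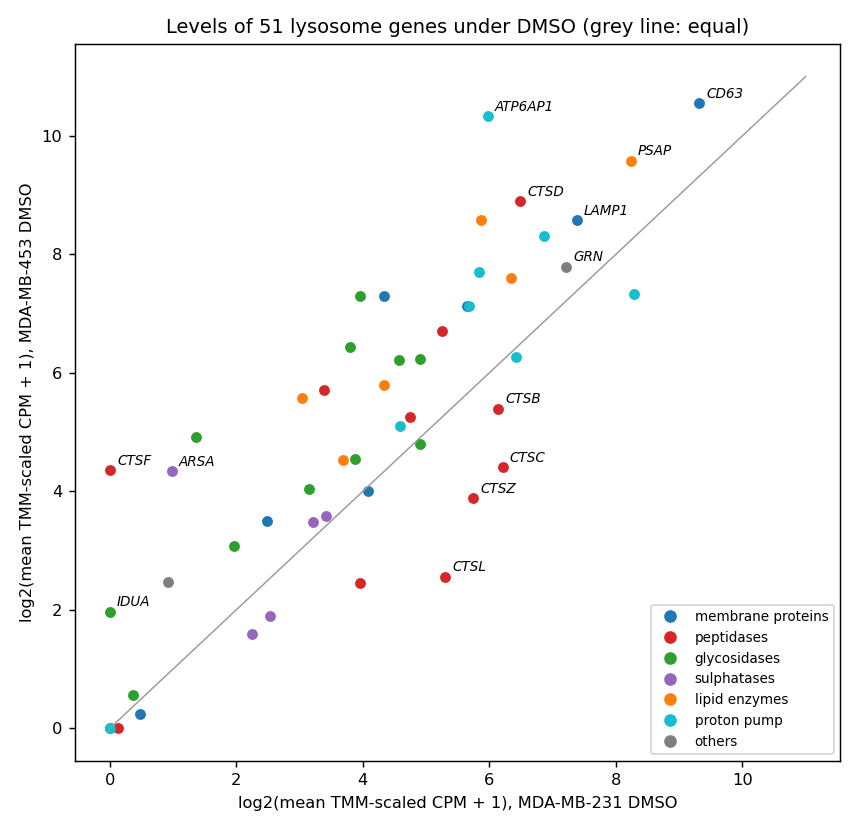
Level of each of the 51 lysosome genes under DMSO, as log2 of the mean TMM-scaled CPM plus 1, in MDA-MB-231 (horizontal) and MDA-MB-453 (vertical), coloured by class; the grey line marks equal levels. Most points lie above the line, with ATP6AP1 and CTSF far above it and CTSL, CTSZ, CTSC and CTSB below it.

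Other genes of the pathway, 78 in 5 lists chosen by role with earlier results of these data known, were counted in the same fits. With abemaciclib, 27 of 70 tested were called higher and 2 lower for MDA-MB-231, and 24 of 70 higher and 5 lower for MDA-MB-453, beside the 33.7% and 36% of all genes called. Their median log2 fold changes, 0.44 and 0.30, were below those of the 51 genes. Among other hydrolases and cofactors, 8 of 17 were higher and 0 lower for MDA-MB-231, against 4 of 17 higher and 1 lower for MDA-MB-453. The sphingolipid activator GM2A rose by 1.38 ± 0.21 in MDA-MB-231, with 0.15 ± 0.14 in MDA-MB-453. Other membrane proteins were higher for 6 of 14 and 5 of 13, and lower for 0 and 1. The sialic acid exporter SLC17A5 rose by 1.42 ± 0.36 and 0.85 ± 0.23, and LAPTM4B, a transmembrane protein, was the 1 called lower, at -2.12 ± 0.38 (adjusted p = 1.2e-05) in MDA-MB-453.

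Genes of mannose 6-phosphate tagging and sorting were higher for 2 of 10 and lower for 1 in MDA-MB-231, and higher for 5 of 10 and lower for 1 in MDA-MB-453. IGF2R, the large receptor for tagged hydrolases, rose by 0.59 ± 0.16 and 1.48 ± 0.12, whereas M6PR, the small one, was at -0.43 ± 0.13 (adjusted p = 0.0087) in MDA-MB-231 and 0.42 ± 0.11 (adjusted p = 0.0023) in MDA-MB-453. Other proton pump subunits were higher for 3 of 10 and 6 of 11, and 0 were lower. The accessory subunit ATP6AP2 rose by 1.04 ± 0.17 and 0.72 ± 0.09. Among 19 tested genes that control TFEB or are its relatives, 8 were higher and 1 lower for MDA-MB-231, against 4 higher and 2 lower for MDA-MB-453. MITF rose in MDA-MB-231 (0.60 ± 0.15), RHEB, the activator of mTORC1, was lower in MDA-MB-453 (-0.95 ± 0.20), and the mTORC1 subunit MLST8 was lower in both (-0.56 ± 0.21 and -0.83 ± 0.17). FNIP1, a partner of folliculin, rose in both (0.77 ± 0.21 and 0.89 ± 0.20). The genes named here are only some of those called in this list, most of which were higher. Whether any of them bears on TFEB was not tested. The shares called in the lists of sorting and of pump subunits for MDA-MB-231 were no higher than those of all genes. The same held in MDA-MB-453 for the lists of hydrolases and of TFEB control and relatives.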

How the data were processed

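RNA of both lines was measured by QuantSeq 3′ forward libraries (24 libraries, n = 3 per line and treatment). Per the study's methods, the authors removed adapters with BBDuk, mapped reads to hg38 by STAR, obtained counts per gene from featureCounts with GENCODE annotation, and deposited raw gene counts, whole numbers without normalisation. Strand setting, multiply aligned reads, duplicates and molecular identifiers are not given in the sources used here, so limits from counts of 0 cover counting error alone. A single table line without a gene name (1 line, 0 counts) was left out.

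Analyses were run in R 4.3.3 and edgeR 4.0.16 with filterByExpr, TMM scaling, and quasi-likelihood models of the 12 libraries of each line, or of all 24 for comparisons between lines. The threshold was 0.05 on the Benjamini-Hochberg adjusted p, taken over the whole table of tested genes. Medians over the listed genes have no test. Alternatives were DESeq2 1.42.0, median-of-ratios factors, library totals without mitochondrial genes, no filter, only the groups compared, a replicate block, and leaving out each library. Replicates were checked for copies: for the 24 pairs within groups, chi-square divided by its degrees of freedom (genes of 20 counts or more) lay between 2.64 and 8.65, where copies of a library give 1.

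Genes given with values in every library were LAMP1, CTSD, GLB1, PSAP, TFEB, MCOLN1 and ATP6V1A, and those taken by rule: for abemaciclib in each line, the 3 called genes with the largest change in each direction among those of at least 10 CPM in either group without overlap; for comparisons between lines, the 3 largest in each direction; elsewhere the called gene of largest change. The genes and lists were chosen with earlier results of these data known. Positions and overlaps are from GENCODE v44 on GRCh38, a later release than that used for the counts. Promoters are from RefSeq on GRCh38.p14, where 16 of the 51 genes had no window.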

Additional observations from a re-analysis of the deposited data

Results flagged for a closer look

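The abemaciclib effect on 14 lysosome genes differed between the lines by edgeR's quasi-likelihood test of the difference, coded as MDA-MB-453 minus MDA-MB-231 on the log2 scale. After each adjusted p, the effect in MDA-MB-231 comes first and that in MDA-MB-453 second. Line and culture medium cannot be told apart in this difference. Over all 12750 genes tested, it was called lower for 13% and higher for 7.72%. The effect was called in opposite directions for 2 genes: LIPA, with -2.73 ± 0.37 (adjusted p = 9.6e-08; effects 1.37 and -1.37), and CTSC, with -1.88 ± 0.29 (adjusted p = 1.5e-06; effects 0.72 and -1.16).

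Among peptidases that did not fall in either line, the difference was -1.41 ± 0.28 (adjusted p = 0.00014; effects 2.11 and 0.69) for TPP1. CTSB gave -0.75 ± 0.19 (adjusted p = 0.0021; effects 1.03 and 0.27). CTSD gave -0.65 ± 0.14 (adjusted p = 0.00029; effects 1.30 and 0.64). Of the glycosidases, GAA differed by -0.96 ± 0.22 (adjusted p = 7e-04; effects 1.58 and 0.61). MANBA differed by -1.25 ± 0.45 (adjusted p = 0.04; effects 2.44 and 1.18), and in MDA-MB-231 it passed the low-count filter only through the libraries with abemaciclib. In the lipid group, NPC2 gave -0.68 ± 0.15 (adjusted p = 0.00041; effects 1.45 and 0.76). PSAP gave -0.54 ± 0.11 (adjusted p = 0.00029; effects 1.47 and 0.92). The difference was -1.05 ± 0.32 (adjusted p = 0.013; effects 1.39 and 0.33) for SMPD1. GRN gave -0.55 ± 0.14 (adjusted p = 0.004; effects 1.41 and 0.86). For the pump subunit ATP6V0D1 it was -0.46 ± 0.17 (adjusted p = 0.042; effects 0.59 and 0.12). The MANBA call was lost without MDA-MB-231 abemaciclib replicate 2, any MDA-MB-231 DMSO replicate or MDA-MB-453 DMSO replicate 2 (adjusted p up to 0.13). The ATP6V0D1 call was lost without MDA-MB-231 abemaciclib replicate 1 or 2, MDA-MB-231 DMSO replicate 1 or 3 or MDA-MB-453 abemaciclib replicate 2 (adjusted p up to 0.084). The effect was larger in MDA-MB-453 for NPC1, with 1.16 ± 0.34 (adjusted p = 0.0099; effects -0.45 and 0.70), and for ATP6AP1, with 0.37 ± 0.14 (adjusted p = 0.045; effects 0.60 and 0.96). As given above, the ATP6AP1 call was lost in most alternatives, and the NPC1 and SMPD1 calls when a single library was left out.

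In MDA-MB-453, the interaction of the drugs was called for ATP6V1A, at -0.59 ± 0.16 (adjusted p = 0.026): its effect of abemaciclib was 0.94 against DMSO and 0.35 on top of fulvestrant. As given above, this call was lost in most fits that left out a single library.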

How the results depend on the processing

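No called gene changed direction under any alternative. The median for the combination against abemaciclib in MDA-MB-231, where 0 genes were called, was -0.04 and became 0.02 without combination replicate 2. With abemaciclib, 24 of the 28 calls in MDA-MB-231 and 27 of the 28 in MDA-MB-453 were kept in all 12 alternatives, and calls without 1 library numbered 25 to 29 and 27 to 31. The median in MDA-MB-231 was 0.70 to 0.74 without 1 library, all above 0.67, which lies midway between genes at 0.62 and 0.72. Without mitochondrial genes in the totals, the median over all genes moved by 0.05 and 0.07, and the calls were 28 and 30. The replicate numbers do not pair the libraries (correlations of deviations between -0.09 and 0.03), and a replicate block gave 28 calls in each line. The block ended calls for CTSH, ATP6AP1 and CTSZ in the combination comparisons of MDA-MB-231 and for 4 genes between lines.

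Small counts of calls moved most. DESeq2 called 2 genes for fulvestrant in MDA-MB-453 and 1 for the combination against abemaciclib. Leaving out 1 library gave 0 to 7 calls for fulvestrant and 0 to 2 for the combination against abemaciclib in MDA-MB-453, 0 to 1 for each in MDA-MB-231, and 0 to 2 for the interaction in both lines. Calls over all genes moved as well, from 0 to 205 for fulvestrant in MDA-MB-231 without fulvestrant replicate 1. These counts alone do not set the lysosome genes apart. For the difference between lines, 9 of 14 calls were kept in all 18 alternatives, and the median ran from -0.41 without MDA-MB-453 abemaciclib replicate 1 to -0.20. The cause of these shifts was not tested. At a few counts per library, as for TFEB in MDA-MB-231 and for IDS and ARSB in MDA-MB-453, changes of the size seen in others may not have been detectable.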

Other observations

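A few genes made up most of the summed counts of the 51. Under DMSO, 5 genes held 55.9% of these counts in MDA-MB-231 (CD63, ATP6V0E1, PSAP, LAMP1 and GRN) and 5 held 59.4% in MDA-MB-453 (CD63, ATP6AP1, PSAP, CTSD and NPC2). Under abemaciclib the same 5 genes of each line led, with 63.4% and 65.5%. CD63 alone held 22.8% and 26.6% in MDA-MB-231 under DMSO and abemaciclib, and 20.2% and 22.9% in MDA-MB-453. These are shares of counts that were not divided by transcript length, and they have no test.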
